A study of Sus scrofa with 14 samples.

Results

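T and NK lymphocyte nuclei of the pig mammary gland were examined at 5 stages of the reproductive cycle. A nucleus was counted as a member when it had at least 300 detected genes, carried transcripts of at least 2 of 7 lymphocyte genes (CD3E, KLRK1, SKAP1, CD96, SCML4, IKZF3 and NLRC3), and held no unique molecular identifier (UMI, 1 counted transcript molecule) of EPCAM, COL1A1, PTPRB, RGS5, CD163 or BANK1, which mark epithelium, fibroblasts, endothelium, pericytes, macrophages and B cells. In all, 4103 of 127926 gland nuclei met this rule (3.21%). Because measured transcripts chose these nuclei, their excess of T and NK genes over other nuclei is a description and was given no test.

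The tissue came from multiparous sows in their second breeding cycle that were fed a normal diet, and frozen gland was profiled by single-nucleus RNA-seq. Glands were taken at day 90 of gestation (G90), at day 0 (L0) and day 20 (L20) of lactation, and at 2 days (PI2) and 7 days (PI7) after natural involution began. Each stage had 2 gland libraries, called replicates 1 and 2, and no stage received a drug or carried a genetic change. The gland library was the unit of comparison. Nothing in the labels ties a library to a named sow, so p-values measure the spread between these libraries.

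T cells recognise peptide antigen through a receptor whose CD3 chains pass the signal to the kinases LCK and ZAP70. Helper T cells carry CD4, cytotoxic T cells carry CD8, and natural killer (NK) cells kill without that receptor, using activating receptors such as KLRK1 (NKG2D) and NCR1. In the mammary gland these cells lie in the stroma and between epithelial cells, and they are known to defend the tissue against infection and to take part in its remodelling after weaning.

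Libraries held 18962138 to 53165191 UMIs, and members together held 5713350 UMIs. The median member carried 847 to 1405.5 UMIs per gland and the median other nucleus 1406 to 2515. Median mitochondrial UMIs of members ranged from 0% to 2.39%, and exceeded those of other nuclei in 7 of 10 glands. Of 124070 different barcode sequences, 4081 occurred in more than 1 gland, and 2 of them were members in more than 1 gland. No doublet caller was run, and 537 members carried more than 2 times the median member UMIs of their gland.

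L20 replicate 1 stood apart before any comparison was made. It held 39 members, of which 20.5% carried 3 or more of the 7 rule genes, against 43.0% to 73.5% in the other glands. Its T cell receptor list summed to 2233 CPM (UMIs of the genes per 1000000 UMIs of the members of a gland), and the next lowest gland had 5751 CPM. TRAT1, CD4, GZMH and PRF1 had 0 UMIs there. The rank correlation of gene levels between both members of a stage pair was 0.491 at L20 and 0.714 to 0.832 at the other stages. It is doubtful that these 39 nuclei are T or NK cells, and the share and ratios of this gland are to be read with that doubt. Comparisons that include L20 were therefore also run without this library.

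Genes that the rule had not used showed the identity of the nuclei. Among genes of at least 100 CPM in members, the highest ratios of member to other nuclei were led by CD3D, a CD3 chain of the receptor, at 205 CPM in all members and 4.86 CPM in other nuclei, with a median ratio over glands of 56.7 (range 12.8 to 145). CD2, an adhesion receptor of T and NK cells, had a median ratio of 52.0. The lymphocyte protease CTSW stood at 44.6 and TRAT1, an adaptor of the receptor complex, at 43.5. The proximal kinases ZAP70 and LCK stood at 39.0 and 37.4, and IL2RB, the interleukin 2 and 15 receptor chain shared by T and NK cells, at 38.4. All 20 measured genes of the T cell receptor list were higher in members over the pooled glands, and 19 were higher in all 10 glands. TRAT1 was the exception, at 0 UMIs in L20 replicate 1.

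The receptor list as a whole held a median of 7733 CPM in members and 450 CPM in other nuclei, and was higher in members in 10 of 10 glands. The cytotoxic list held 1518 CPM in members and 41.6 CPM in other nuclei, and the residency and homing list 1834 and 287 CPM, again higher in members in every gland. A list of gamma delta and innate-like lymphocyte genes (RORA, GATA3, ZBTB16 and others) went the other way. It held 1781 CPM in members and 2459 CPM in other nuclei and was higher in members in 0 of 10 glands. Epithelial genes also moved the other way. Their summed level in members was below that in other nuclei in all 10 glands, with medians of 1064 and 2310 CPM, but it was not 0 and reached 6785 CPM in L0 replicate 1. The fibroblast and macrophage lists were likewise lower in members in all 10 glands. Other lists were not, since B and plasma genes were higher in members in 4 glands (757 against 278 CPM in L0 replicate 1), granulocyte and mast genes in 4, mural and myoepithelial genes in 3, adipocyte genes in 2 and endothelial genes in 1.

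**Figure D1:**
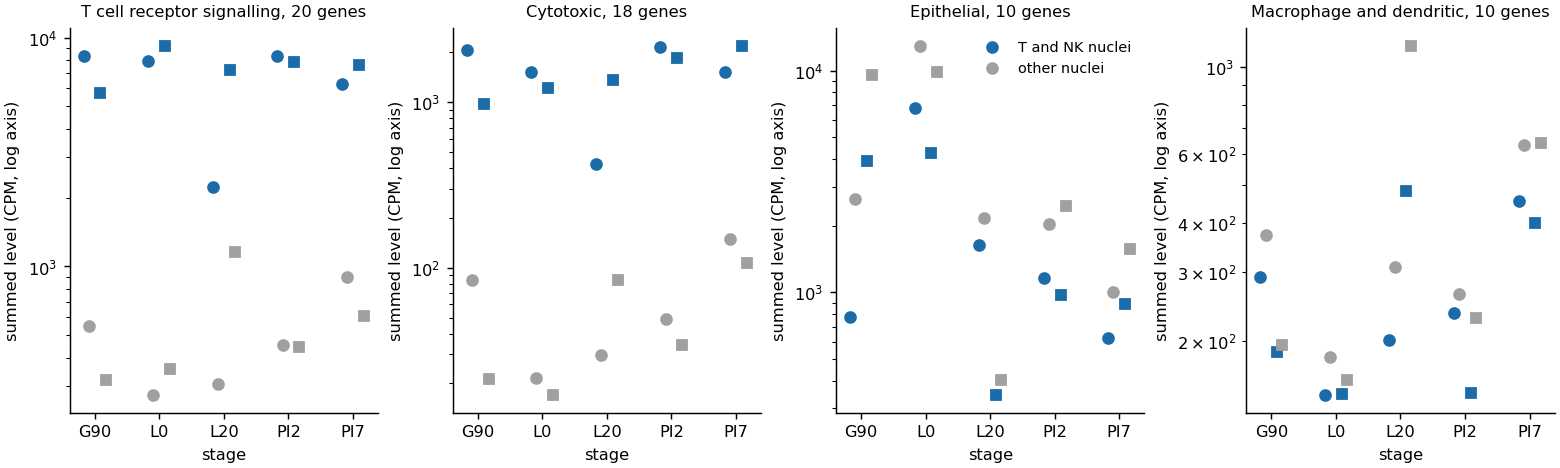
Summed level in CPM (logarithmic axis) of the T cell receptor, cytotoxic and epithelial gene lists in members and in all other nuclei, 1 point per gland library by stage. Receptor and cytotoxic genes lay above the other nuclei in every gland, and epithelial genes lay below them in every gland.

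Membership depended on how many of the 7 rule genes were seen. Nuclei just outside the rule, with transcripts of 1 rule gene, numbered 7380 and held 832 CPM of receptor genes and 3665 CPM of epithelial genes. Nuclei just inside, with 2 rule genes, numbered 1595 (38.9% of members) and held 4185 CPM of receptor genes and 1831 CPM of epithelial genes. The 1038 nuclei with 3 rule genes held 8007 and 920 CPM. Nuclei with 2 rule genes lay between those with 1 and those with 3 in both lists. Before the 6 exclusion genes were applied, 6538 nuclei passed, so that 62.8% were kept, from 44.5% in L20 replicate 2 to 86.2% in PI2 replicate 2.

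The share of T and NK nuclei differed between stages and between glands of a stage. At G90 it was 5.75% in replicate 1 and 1.33% in replicate 2. At L0 it was 1.32% and 1.22%. At L20 it was 0.302% and 2.24%. In L20 replicate 2 COL1A1 was seen in 32.5% of all nuclei and CD163 in 26.8%, so the exclusion genes weighed on its share. Without them this gland stood at 5.04%, beside 5.02% and 2.23% at PI2 under the same change. The L0 glands were close to each other, whereas the G90 and L20 glands were not.

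During involution the share was 3.64% and 1.93% at PI2, and 6.69% and 7.88% at PI7. Both PI7 glands exceeded every other gland, and together they supplied 1910 members, 46.6% of the total. With at least 500 detected genes this order did not hold. G90 replicate 1 then stood at 6.13%, above PI7 replicate 2 at 5.72%. The exact 95% binomial interval was 0.215% to 0.412% for the lowest gland and 7.36% to 8.42% for the highest. These intervals cover counting error only and are narrower than the distance between glands of G90 or L20.

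Averaged over both glands of a stage (SD, n = 2), the share was 3.54% ± 3.13 in gestation (G90). It was 1.27% ± 0.0726 and 1.27% ± 1.37 in lactation (L0 and L20), and 2.78% ± 1.21 and 7.28% ± 0.844 in involution (PI2 and PI7). The 4 lactation glands averaged 1.27% ± 0.794 and the 6 others 4.54% ± 2.65, a difference of -3.26 percentage points (exact two-sided permutation test over 210 splits, p = 0.0524, Benjamini-Hochberg adjusted p = 0.133 over 8 tests). The 4 involution glands averaged 5.03% ± 2.74 against 2.03% ± 1.93, which is 3.0 points higher (exact permutation p = 0.0810, adjusted p = 0.133). Neither difference passed the threshold of 0.05, and the smallest p this design can give is 0.00476. Without L20 replicate 1 the lactation difference was -2.94 points and the involution difference 2.66 points. A nuclear share cannot separate more lymphocytes from fewer nuclei of other types.

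**Figure D2:**
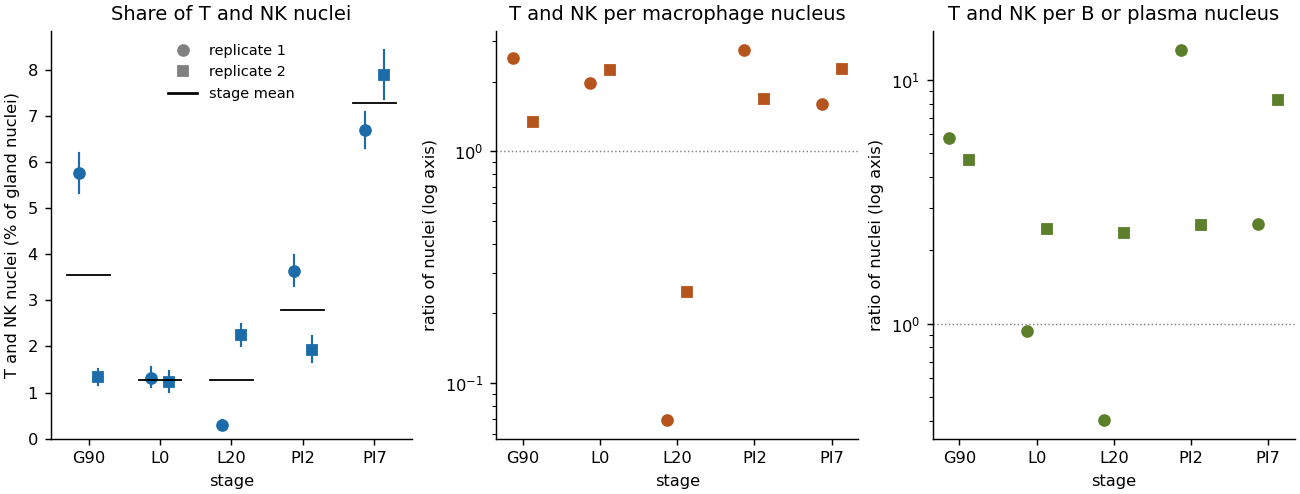
T and NK nuclei as a percent of nuclei with at least 300 genes, and their ratio to macrophage and to B and plasma nuclei (logarithmic axis), 1 point per gland library by stage, with exact 95% binomial intervals on the shares. Both PI7 glands lay above all others in share, at 6.69% and 7.88%, which did not hold with at least 500 detected genes.

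The other leukocytes were counted by rules of the same form, which gave 3842 macrophage nuclei and 1256 B and plasma nuclei. T and NK nuclei outnumbered macrophage nuclei in the 8 glands outside L20, with ratios from 1.34 in G90 replicate 2 to 2.75 in PI2 replicate 1. That order depended on the exclusion genes, since without them macrophage nuclei were the more numerous in 4 of these 8 glands (543 against 329 in G90 replicate 2, 226 against 210 in PI2 replicate 2, and 2816 against 2028 and 1220 against 1181 at PI7). At L20 the order was reversed, with 39 T and NK against 564 macrophage nuclei in replicate 1 (ratio 0.0691), and 344 against 1385 in replicate 2 (ratio 0.248). On the log2 scale the ratio averaged -0.93 ± 2.44 in the 4 lactation glands and 0.97 ± 0.41 in the 6 others, lower in lactation by a log2 difference of -1.90 (exact permutation p = 0.0857, with an adjusted p = 0.133). Without L20 replicate 1 this difference was -0.92. For involution against other stages it was 1.34 (exact permutation p = 0.281, adjusted p = 0.281), and 0.64 without that library (exact permutation p = 0.548).

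Against B and plasma nuclei the ratio was lowest in L20 replicate 1 (0.402) and L0 replicate 1 (0.938), and highest in PI2 replicate 1 (13.3). The remaining lactation glands stood at 2.45 for L0 replicate 2 and 2.36 for L20 replicate 2, just under the lowest gland of the other stages (2.55, PI2 replicate 2). All 4 lactation glands therefore lay below all 6 others, which did not hold without the exclusion genes (134 T and NK against 70 B and plasma nuclei in L0 replicate 2, and 2028 against 1379 in PI7 replicate 1). Nor did it hold with at least 3 genes in each rule (179 against 9 in L20 replicate 2, and 637 against 36 in PI7 replicate 1). With nuclei thinned to 500 UMIs it failed as well (92 against 14 in L0 replicate 2, and 131 against 40 in PI2 replicate 2). The same glands broke it with nuclei of high UMIs left out (101 against 32, and 152 against 60). The log2 ratio averaged 0.28 ± 1.24 in lactation and 2.38 ± 0.94 in the other stages, lower in lactation by a log2 difference of -2.10 (exact permutation p = 0.00952, with an adjusted p = 0.0571). Requiring 500 detected genes per nucleus gave -2.22 (adjusted p = 0.0381). Under the other alternatives it did not pass, and without L20 replicate 1 it was -1.56 (adjusted p = 0.143). For involution against other stages it was 1.39 (exact permutation p = 0.152, adjusted p = 0.174), and 0.93 without that library.

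Within the members, genes of the T cell coreceptors and NK receptors were read against free RNA, which leaks from broken cells into every droplet. The background was the share of 23240 epithelial nuclei, defined by EPCAM and none of the 7 rule genes, that carried a UMI of the gene. It holds any transcripts made by these nuclei as well as free RNA. CD8A was detected in 24.5% of members and 0.753% of epithelial nuclei, and CD4 in 8.68% and 0.546%. With each nucleus thinned to 500 UMIs these shares were 13.7% against 0.142% and 5.46% against 0.133%. On Sscrofa11.1 (RefSeq) CD8A lies on chromosome 3 from 57999228 to 58029768 and CD4 on chromosome 5 from 63892129 to 63918547. More members held CD8A than CD4 in 9 of 10 glands, and in G90 replicate 2 it was 17 against 18 nuclei. Both were held by 55 nuclei (1.34%). The rule includes KLRK1, and whether this raised the count of CD8A nuclei was not tested. KLRK1 without CD3E was found in 927 members (22.6%), which does not by itself mark NK cells because CD3E itself was seen in 41.3% of members.

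CCL5, a chemokine of cytotoxic lymphocytes, was detected in 24.6% of members against 1.11% of epithelial nuclei, and IL2RB in 23.7% against 0.934%. The NK receptors NCR1 and KLRD1 were seen in 4.34% and 4.66% of members, against 0.112% and 0.314% of epithelial nuclei. The granzyme GZMK was seen in 3.83% against 0.340%, and perforin (PRF1) in 3.17% against 0.0904%. IL7R, which holds naive and memory T cells alive, was present in 11.8% against 0.491%. The inhibitory receptors TIGIT and PDCD1 were seen in 4.02% against 0.215% and in 3.12% against 0.224%. FOXP3, the master factor of regulatory T cells, was seen in 1.63% against 0.426%. The effector cytokine IFNG was found in 10 members and 3 epithelial nuclei, and IL2 in 1 of each.

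Several factors often used to name T cell subsets were seen less often in members than in epithelial nuclei. After thinning, RORA was seen in 29.6% of members and 33.7% of epithelial nuclei, GATA3 in 5.65% and 9.80%, and ZBTB16 in 8.21% and 13.7%. BACH2, a factor of naive lymphocytes, was seen in 8.55% and 12.9% (18.5% and 39.8% without thinning). These 4 genes were below the background share, which may include transcription by the epithelial nuclei themselves. The source of their UMIs in members was not tested. IKZF2 (Helios) stood above it, in 22.9% and 8.53%, and TOX, a factor of T cell development and persistence, in 17.4% and 1.42%.

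Between glands, the coreceptors differed widely. CD4 stood at 101 and 96.0 CPM at G90, at 56.1 and 13.9 CPM at L0, and at 0 and 101 CPM at L20. At PI2 it was 33.5 and 138 CPM, and at PI7 50.1 and 386 CPM. PI7 replicate 2 was the highest, and both glands of G90 were close to each other while those of L20, PI2 and PI7 were far apart.

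CD8A stood at 292 and 71.3 CPM at G90, 252 and 264 CPM at L0, and 22.3 and 229 CPM at L20. It was 508 and 229 CPM at PI2 and 274 and 352 CPM at PI7. PI2 replicate 1 was the highest and L20 replicate 1 the lowest, and the 2 glands of G90 spanned those of L0.

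KLRK1, a rule gene that is given only as a description, ran from 134 CPM in L20 replicate 1 to 1486 CPM in PI2 replicate 1. The same gland was the highest for the gut homing receptor CCR9 (75.9 CPM against 0 to 21.6) and the NK and T cell receptor CD244 (254 CPM against 0 to 139). PI7 replicate 2 was the highest for GZMK (131 CPM against 0 to 36.8), PDCD1 (91.2 CPM against 6.87 to 22.3), TIGIT (118 CPM against 2.74 to 44.7), HAVCR2 (52.3 CPM against 0 to 16.5), and ENTPD1, an ectoenzyme of activated and regulatory T cells (358 CPM against 11 to 74.6). In each case the other gland of the same stage lay with the rest, so these levels belong to single libraries and were chosen after their values were seen.

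**Figure D3:**
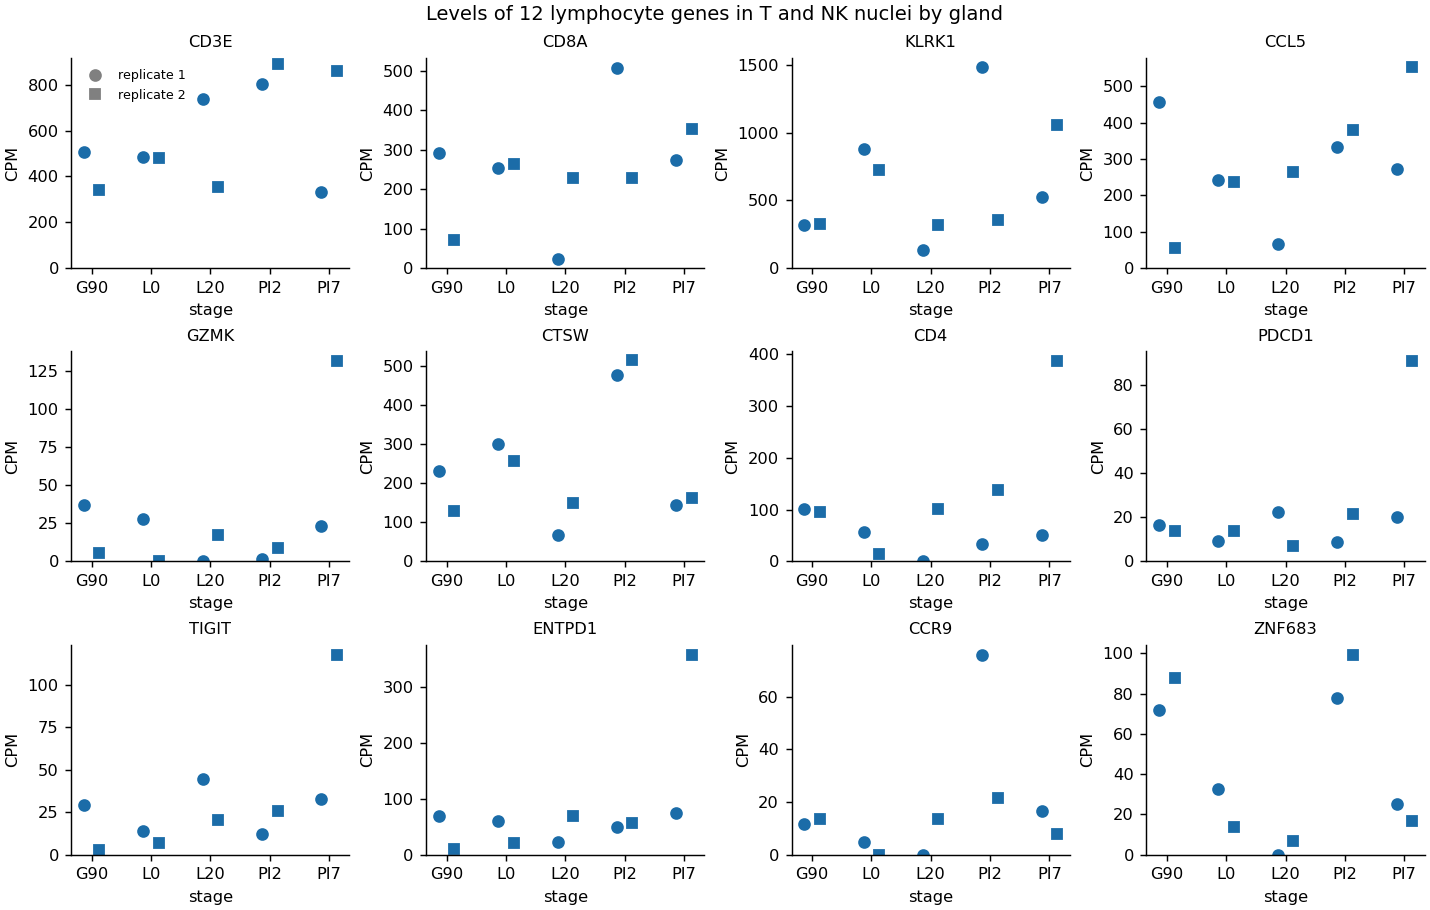
Level in CPM of selected T and NK genes in the members of each gland library, by stage. PI2 replicate 1 was the highest for CD8A and KLRK1, and PI7 replicate 2 for CD4.

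To split the members, each was thinned to 500 UMIs and asked for a UMI of a cytotoxic list (CD8A, CD8B, granzymes, PRF1, NK receptors, CCL5, TBX21 and others) and of a helper and naive list (CD4, LEF1, TCF7, CCR7, IL7R, CD28, ICOS, CD40LG, BACH2 and others). Cytotoxic-gated nuclei, with the first and not the second, made up 71.7% and 62.1% of gated members at G90, 67.6% and 66.7% at L0 and 64.3% and 65.6% at L20. At PI2 they made up 79.8% and 73.8%, and at PI7 69.4% and 73.2%. The gated share averaged 74.1% ± 4.31 in the 4 involution glands and 66.3% ± 3.26 in the 6 others, which is 7.75 points higher (exact permutation p = 0.0143, adjusted p = 0.0571). In lactation it averaged 66.0% ± 1.41 against 71.7% ± 5.84 (exact permutation p = 0.1, adjusted p = 0.133). No rule gene is in either list, but the rule includes KLRK1, an activating receptor used by NK cells. PI2 replicate 1 had both the highest gated share and the highest KLRK1 level. The part of the rule in the gated share was not tested.

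Since BACH2 was seen less often in members than in epithelial nuclei, the helper list was also used without it, a choice made after its values were seen. The involution difference was then 4.56 points (exact permutation p = 0.0952, adjusted p = 0.152). With gates of at least 2 genes of 1 list and 0 of the other, on unthinned counts, it was 3.64 points. With thinning to 1000 UMIs it was 1.30 points. The lactation difference changed sign to 0.489 points when at least 2 genes were required. Under these gates L20 replicate 1 had 3 cytotoxic-gated and 0 helper-gated nuclei, a share of 100%, which entered both differences. The sign change thus rests on 3 nuclei of the library in doubt.

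Genes were then compared within glands between cytotoxic-gated and helper-gated members (gates on unthinned counts), leaving out the rule genes and the genes of both lists. Without thinning, 1435 members (35.0%) were cytotoxic-gated, 638 (15.5%) helper-gated, 1335 (32.5%) had both lists and 695 (16.9%) neither. L20 replicate 1 had too few nuclei, so 9 glands entered. Of 2480 genes tested with edgeR's quasi-likelihood test with gland as a block, 98 (3.95%) were called, at a Benjamini-Hochberg adjusted p under 0.05 and more than 1 unit of change on the log2 scale. They divided into 39 (1.57%) that were higher in cytotoxic-gated and 59 (2.38%) that were higher in helper-gated nuclei.

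The cytotoxic side held genes of tissue residency and receptor signalling. ITGA1, the alpha chain of the collagen-binding integrin VLA-1 of resident T cells, had a median of 280 CPM in cytotoxic-gated nuclei (157 to 669) and 84.7 CPM in helper-gated nuclei (14.4 to 130), and was higher in 9 of 9 glands. Its gene lies on chromosome 16 from 32130265 to 32309917. The 2 ranges did not overlap, and the log2 fold change was 1.96 ± 0.23 (SE, edgeR adjusted p = 3.39e-07). RUNX3, a factor of the CD8 and NK lineages, was higher in 9 of 9 glands by 1.65 ± 0.25 on the log2 scale (edgeR adjusted p = 1.44e-05). The leukocyte integrin chain ITGAL was higher by 1.32 ± 0.17 (edgeR adjusted p = 3.10e-06). These were 3 of the 5 residency and homing genes that could be tested, of 20 listed. Over all genes tested, 1.57% passed in this direction. All 5 had a positive difference, with a median of 1.32 on the log2 scale against -0.01 over all genes tested. The low-count filter keeps a gene that is high in only 1 gate, so these counts describe the tested genes and not the list. ITGAL did not pass under any of 3 stricter choices of nuclei (at least 3 rule genes, no epithelial UMI, or a helper list without BACH2).

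PLCG2, a phospholipase downstream of NK receptors, was higher by 1.67, the protease CTSW by 1.58, the signalling protein CHN2 by 1.53, the phosphatase PTPN22 by 1.47, the receptor ADGRG1 of cytotoxic lymphocytes by 1.46 and the exchange factor VAV3 by 1.38. Of the receptor list, 4 of 20 genes passed (TXK, PRKCQ, TRAT1 and CD226), 19 of 20 were positive and the median was 0.64, against -0.01 over all genes tested. The list median fell to 0.22 among members with at least 3 rule genes and to 0.31 among members with no epithelial UMI. Under those choices CD226 passed in the first and TRAT1 in the second, and none of the 4 passed when BACH2 was taken out of the helper list. IL12RB2, a chain of the interleukin 12 receptor, passed at 1.05 ± 0.26 (edgeR adjusted p = 0.00446) but under none of these choices. All 39 genes of this side were higher in members than in other nuclei of the gland.

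On the helper side 58 of 59 genes were lower in members than in other nuclei. They included NFIB and LGR4, known in epithelium, and the junction protein MAGI1, at -1.31, -1.24 and -1.22. Helper-gated nuclei held 1560 CPM of epithelial genes and 5052 CPM of receptor genes, against 955 and 8686 CPM in cytotoxic-gated nuclei. Without BACH2 in the list the epithelial order turned, to 913 CPM in helper-gated and 1108 CPM in cytotoxic-gated nuclei, with receptor genes at 6881 and 8235 CPM. Fewer genes were called when the nuclei were chosen more strictly. With at least 3 rule genes 14 genes were higher in cytotoxic-gated and 7 in helper-gated nuclei, with no epithelial UMI 16 and 3, and without BACH2 15 and 6. Many of the first calls could not be tested again, since of the 59 helper-side genes 23, 17 and 52 were tested under these choices, and of the 39 cytotoxic-side genes 34, 35 and 37. With at least 3 rule genes and with no epithelial UMI the L0 glands had too few nuclei to enter. PLCL1, a phospholipase-like protein, was the 1 helper-side gene called both at first and under the removal of epithelial UMIs and of BACH2 (-1.64 in all gated nuclei).

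Of the 98 genes called at first, 9 also passed under all 3 of these changes and with each gland left out, and these 9 were higher in cytotoxic-gated nuclei. They were ITGA1, RUNX3, PLCG2, CTSW, CHN2, PTPN22, ADGRG1, VAV3 and ENSSSCG00000026217, a gene without a symbol in the files (2.20 ± 0.25). CTSW, ADGRG1 and CHN2 did not pass under every other alternative. Their highest adjusted p over all edgeR and DESeq2 fits was 0.116, 0.0736 and 0.0607. CD5, an inhibitory receptor of T cells, was higher in helper-gated nuclei under all 3 changes, with log2 differences of -1.17 with 3 rule genes, -1.03 with no epithelial UMI and -1.38 without BACH2 (edgeR adjusted p = 0.0103, 0.0456 and 0.000612). In all gated nuclei it was -0.71 ± 0.24 (edgeR adjusted p = 0.0415), short of the fold limit. The phosphatase PTPN13 was higher in helper-gated nuclei without BACH2 and with no epithelial UMI.

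**Figure D4:**
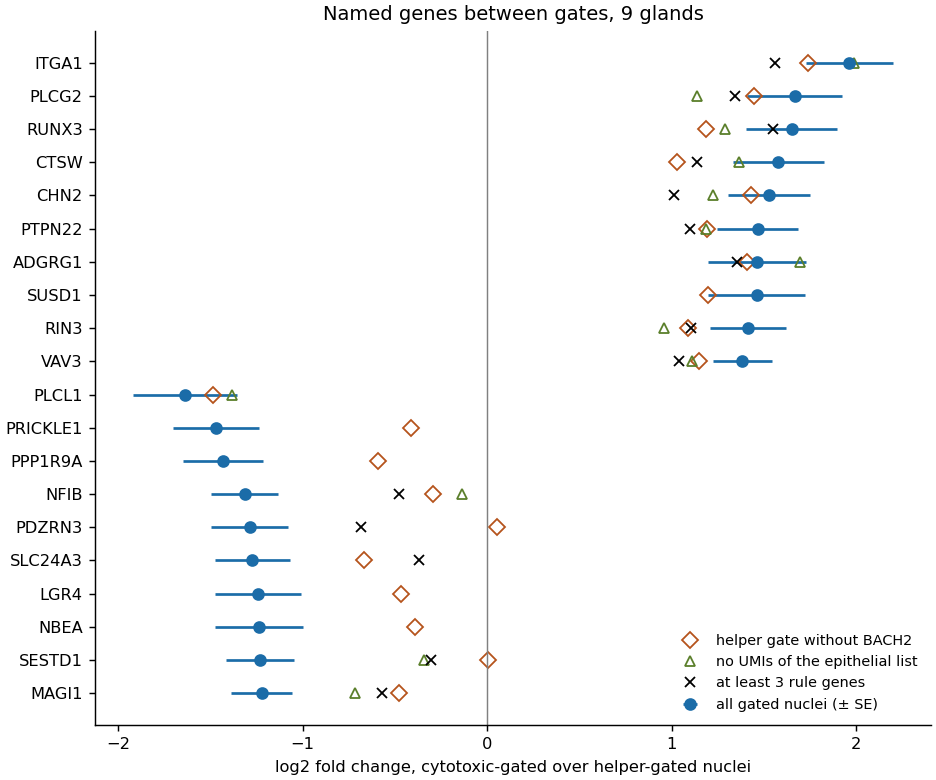
Log2 fold change of named genes between cytotoxic-gated and helper-gated members with its standard error, for all gated members and for the stricter choices of nuclei, with positive values higher in cytotoxic-gated nuclei. A missing point means that the gene was not tested under that choice. The cytotoxic-side genes stayed positive, and PLCL1 stayed negative.

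Gene levels in members were compared between stages on UMIs summed per gland, with 10688 genes tested in edgeR. From G90 to L0, 1 gene passed (0.00936%), and between L0 and L20, L20 and PI2, PI2 and PI7, and lactation and the other stages 0 passed (0% in each). DESeq2 called 20, 33, 1, 2 and 16 genes in these 5 comparisons. At an unadjusted p under 0.05, edgeR gave 652, 967, 909, 373 and 596 genes. Counts simulated at the spread of these libraries (biological coefficient of variation 0.441) gave 5% recovery of genes changed by 1.5 on the log2 scale and 43% of genes changed by 3, so most differences of such sizes were not detectable between G90 and L0.

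The gene that passed was FOXP2, a forkhead transcription factor. It stood at 26.2 and 19.2 CPM at G90 and 285 and 292 CPM at L0, and at 34.5 to 156 CPM in the other glands. It rose by 3.73 on the log2 scale from G90 to L0 (edgeR adjusted p = 0.0433). Other nuclei of the same glands held 80.0 and 28.0 CPM at G90 and 702 and 580 CPM at L0, above the members in all 10 glands. It did not pass when any 1 of the 6 glands of G90, L0 and L20 was left out (edgeR adjusted p up to 0.588). When members with any UMI of the epithelial list were left out, the fitted change was -6.19, but L0 replicate 1 then had 13 members and was not in the fit, and L0 replicate 2 had 28 members with 0 UMIs of FOXP2.

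Genes with an unadjusted p under 0.05 and a log2 fold change over 1 were, from G90 to L0, lower in members than in other nuclei in 67.4% of 651 cases, against 45.9% of all genes tested. From L20 to PI2 it was 37.5% of 909. Milk protein and epithelial genes were among the named genes of several comparisons. PAEP, a whey protein gene, stood at 1999.5 to 4000.1 CPM in members at G90 and L0 and at 268 and 29.2 CPM at L20, and other nuclei held more in every gland. SPP1, a secreted phosphoprotein of macrophages and epithelium, stood at 1490 and 501 CPM at PI7 and 115 and 64.7 CPM at PI2, also below the other nuclei in all 10 glands.

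A few of the largest differences concerned genes that members held above other nuclei. CCL4, a chemokine of activated lymphocytes and macrophages, stood at 145 and 74.1 CPM at G90, 4.68 and 6.96 CPM at L0, and 134 and 43.0 CPM at L20. It was 10.6 and 12.9 CPM at PI2 and 34.2 and 91.2 CPM at PI7, and other nuclei held at most 12 CPM. The L0 glands, with 1 UMI each, were the lowest. The pooled G90 level was 22.7 times that of L0, with a 95% counting interval of 6.18 to 189. The log2 fold change from G90 to L0 was -4.14 ± 0.95 and did not pass (edgeR adjusted p = 0.431). It passed without the low-count filter (edgeR adjusted p = 0.0108) and from those 2 stages alone (edgeR adjusted p = 0.0403). When the exclusion genes were not used, the log2 fold change was 3.9e-05, so the difference was lost.

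ZNF683 (Hobit), a factor of resident and cytotoxic lymphocytes, stood at 71.8 and 87.8 CPM at G90, 32.7 and 13.9 CPM at L0 and 0 and 6.87 CPM at L20. It was 77.7 and 99.3 CPM at PI2 and 25.1 and 16.7 CPM at PI7. The gestation and PI2 glands were thus above all others. From L20 to PI2 the log2 fold change was 3.90 ± 0.86 (edgeR adjusted p = 0.524), and without L20 replicate 1 it was 3.76 (edgeR adjusted p = 0.397).

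CTSW, also on the cytotoxic side of the gates, stood at 67.0 and 148 CPM at L20 and 477 and 514 CPM at PI2, the highest stage, and at 145 and 161 CPM at PI7. From L20 to PI2 it gave 2.15 ± 0.53 (edgeR adjusted p = 0.524), and 1.86 without L20 replicate 1. The nuclear corepressor CTBP1 stood at 89.3 and 72.2 CPM at L20 and 369 and 410 CPM at PI2 and gave 2.48 ± 0.53 (edgeR adjusted p = 0.524), and 2.55 without that library. Neither gene passed, and both were named here for their small unadjusted p in this comparison.

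No gene of any list passed in any stage comparison. The receptor list had a median of 0.19 from G90 to L0, where the median of all genes was -0.12. From L0 to L20 its median was -0.68 with 19 of 20 genes negative (all genes -0.04), and -0.46 without L20 replicate 1. Among members with at least 3 rule genes its median was 0.07. That fit also lacked L20 replicate 1, which then had 8 members. From L20 to PI2 it was 0.77 (all genes 0.12), and 0.29 without L20 replicate 1. From PI2 to PI7 the regulatory T list had a median of 1.96 over 7 genes (all genes 0.01), and 0.17 without PI7 replicate 2. The cell division list was negative in 12 of 13 genes from L20 to PI2, with a median of -1.23, and -0.21 without L20 replicate 1. Its summed level was 1652 and 472 CPM at L20 and 300.1 and 526 CPM at PI2, so that only L20 replicate 1 lay above both PI2 glands.

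A gland of gestation stood apart in the interferon-stimulated genes, which cells switch on after sensing viral nucleic acid or type I interferon. In the members of G90 replicate 2 the list summed to 13310 CPM. In the other 9 glands it summed to 985 to 2814 CPM, and the other G90 gland held 1186 CPM. Of 26 measured genes, 22 were highest in this gland, against 298 of 2526 (11.8%) of all genes of at least 100 CPM. The gland was singled out after its values were seen, and 1 gland allows no test.

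HERC6, an interferon-induced ubiquitin ligase family member, stood at 1336 CPM in this gland and at 68.8 to 256 CPM in the rest. The antiviral synthetase OAS2 stood at 1226 CPM against 22.3 to 293, and the antiviral GTPases MX1 and MX2 at 886 CPM each against 0 to 122 and 0 to 181. SAMD9, a restriction factor, stood at 1031 CPM against 67.0 to 264. The RNA sensor IFIH1 (MDA5) stood at 609 CPM, RSAD2 (viperin) at 540 CPM and ISG15, a ubiquitin-like modifier, at 148 CPM against 0 to 30.2. IRF1, a transcription factor, was the most abundant gene of those that were not highest here, at 101 CPM.

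The other nuclei of the same gland were high as well. They held 9110 CPM of the list, against 513 to 3253 CPM in the other glands. In members 20 of 26 genes lay above the other nuclei of that gland, and 58.0% of the 2526 genes of at least 100 CPM did. Of the 10 list genes of at least 100 CPM, 10 were highest in this gland and 8 lay above its other nuclei. The excess over other nuclei was 4.73-fold for SAMD9, 3.78-fold for ISG15, 3.34-fold for IFIT1 and 3.12-fold for PARP14. SAMD9 and PARP14 were above other nuclei in all 10 glands, with median ratios of 4.43 and 3.50. Their excess was thus not particular to this gland. The median ratio over glands was 0.572 for ISG15 and 0.906 for IFIT1. OAS2 was lower in members, at 1226 against 1421 CPM, and MX1 was within 1.16-fold. Members of this gland also carried 3894 CPM of epithelial genes, against 620 to 1156 CPM in the other 5 glands outside lactation, and the part of epithelial RNA in the interferon level was not tested.

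This 1 gland set the stage comparison. From G90 to L0 all 22 tested interferon genes were negative with a median of -2.79, and without G90 replicate 2 the median was 0.27. For lactation against the other stages it was -0.98, with 21 of 22 negative, and -0.15 without that library.

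**Figure D5:**
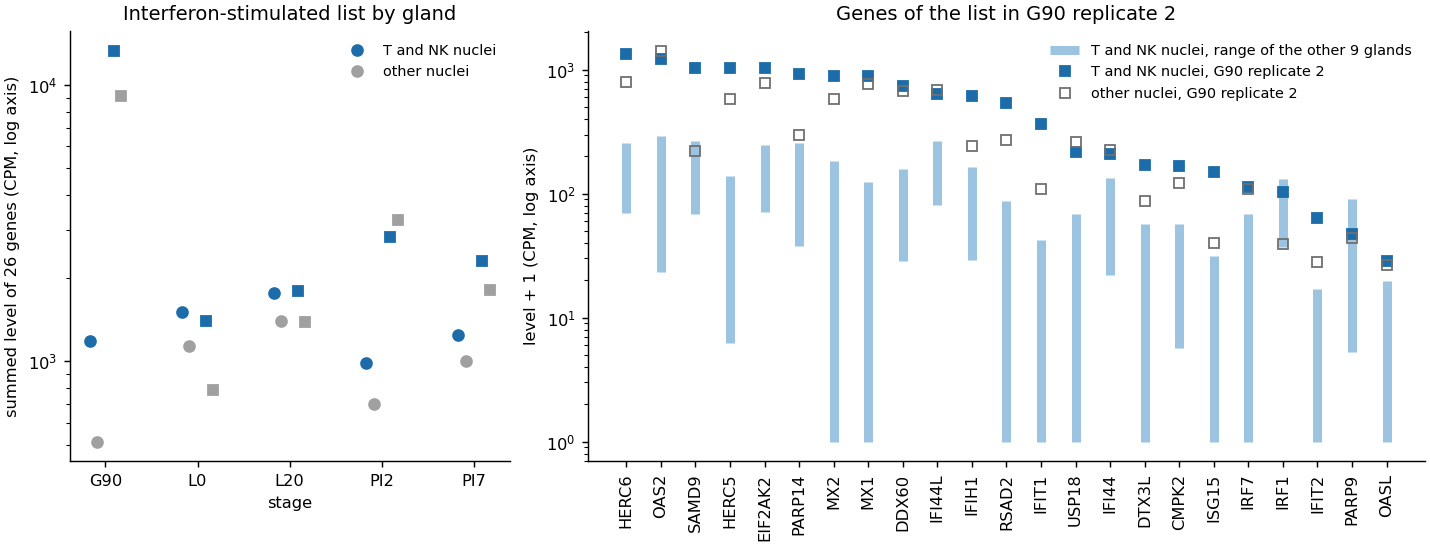
Interferon-stimulated genes in T and NK members and in other nuclei. The left panel gives the summed list in CPM (logarithmic axis) by gland, and the right panel gives genes of the list with a UMI there in the members and in the other nuclei of G90 replicate 2 beside the range over members of the other 9 glands. G90 replicate 2 stood at 13310 CPM in members and 9110 CPM in other nuclei.

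The promoters of these genes were read for the interferon-stimulated response element, taken as GAAA, any 2 bases and GAAA again, on either strand (TTTC, any 2 bases and TTTC on the other). In RefSeq (Sscrofa11.1), the 250 bases before the gene start held it in 9 of 24 list promoters (37.5%), and in 588 of 19531 promoters of all protein-coding genes (3.01%). The 9 were OAS2, HERC5, IFI44L, IFIH1, RSAD2, USP18, DTX3L, ISG15 and OASL. A match is a run of letters and not a shown binding site. The 5 of these 9 with the most UMIs in the members of G90 replicate 2 are printed 5′ to 3′ on the strand of the gene, with each match in capitals, to show where the match lies. HERC6, EIF2AK2, PARP14, MX1 and MX2 held no match and had more UMIs there than IFI44L. They lie at chr14:38847698-38847947 (OAS2), chr8:130591159-130591408 (HERC5), chr6:134679213-134679462 (IFI44L), chr15:68985146-68985395 (IFIH1) and chr3:128897810-128898059 (RSAD2), all on the minus strand.
OAS2: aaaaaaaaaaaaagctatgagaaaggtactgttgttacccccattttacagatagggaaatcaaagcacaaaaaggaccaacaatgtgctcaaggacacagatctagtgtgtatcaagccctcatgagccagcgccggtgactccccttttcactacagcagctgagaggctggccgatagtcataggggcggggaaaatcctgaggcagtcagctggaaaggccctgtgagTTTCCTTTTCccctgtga
HERC5: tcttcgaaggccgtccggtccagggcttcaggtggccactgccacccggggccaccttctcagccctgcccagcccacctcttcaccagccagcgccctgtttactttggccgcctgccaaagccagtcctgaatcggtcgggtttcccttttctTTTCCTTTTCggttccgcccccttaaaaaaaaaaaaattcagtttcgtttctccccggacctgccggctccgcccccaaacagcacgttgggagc
IFI44L: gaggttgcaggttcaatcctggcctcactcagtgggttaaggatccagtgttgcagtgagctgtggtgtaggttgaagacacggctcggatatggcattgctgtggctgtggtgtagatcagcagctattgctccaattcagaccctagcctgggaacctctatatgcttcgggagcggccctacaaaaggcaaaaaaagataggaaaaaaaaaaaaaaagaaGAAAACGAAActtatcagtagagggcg
IFIH1: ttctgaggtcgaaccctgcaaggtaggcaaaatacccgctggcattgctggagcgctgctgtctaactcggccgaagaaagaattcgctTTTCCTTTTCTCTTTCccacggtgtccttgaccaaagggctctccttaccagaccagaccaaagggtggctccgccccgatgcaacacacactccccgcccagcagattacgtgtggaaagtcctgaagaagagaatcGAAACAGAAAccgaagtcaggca
RSAD2: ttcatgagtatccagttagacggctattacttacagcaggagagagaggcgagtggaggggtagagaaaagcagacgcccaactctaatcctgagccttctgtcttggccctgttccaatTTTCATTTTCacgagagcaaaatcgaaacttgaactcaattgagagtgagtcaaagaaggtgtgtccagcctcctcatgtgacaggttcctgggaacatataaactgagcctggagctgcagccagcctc

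The match began 18 bases before the start of OAS2 and 27 bases before that of IFI44L, against 95 for HERC5 and 130 for RSAD2. IFIH1 held 3 matches, at 161, 155 and 23 bases, and the first and second of these overlap. In members of G90 replicate 2 these 5 genes held 197 to 447 UMIs each.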

How the data were processed

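Gland nuclei of 10 libraries, 2 at each of 5 stages, were analysed. Tissue sections and milk cells were not analysed here. The authors deposited UMI counts per gene and nucleus, made with CeleScope on Sscrofa 11.1 per the study's methods and the labels. No source used here names the annotation release. The deposited counts had no barcode below 500 UMIs, so an earlier filter had been applied. Of 28711 gene identifiers, 15457 carried a symbol in the files and 639 more were named from the RefSeq table.

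The members and gene lists were chosen with earlier results of these data known. Listed genes without a row in the count tables (among them CD3G, LAT, TRAC, GZMB and MKI67) were not analysed here. Members were found by the rule above, macrophage and B and plasma nuclei by rules of the same form. Shares and log2 ratios were compared over glands by exact two-sided permutation tests with Benjamini-Hochberg adjustment over 8 tests. UMIs were summed over members per gland and tested with edgeR 4.0.16 (R 4.3.3, quasi-likelihood test, TMM, filterByExpr, all stages in 1 fit), at an adjusted p of 0.05 and an absolute log2 fold change of 1. The same test with gland as block compared cytotoxic-gated with helper-gated members, in glands with at least 10 nuclei of each. Scripts were tested on simulated counts. Named genes were those of the lists, the 20 with the highest median ratio of members to other nuclei among genes of at least 100 CPM outside the rule genes, up to 10 called genes per direction between gates by absolute log2 fold change (mean of at least 50 CPM), and per direction and stage comparison up to 10 called genes whose glands did not overlap or, with fewer than 3 called, the 3 of smallest p. A few genes of these lists are not reported here by name. Alternatives covered the number of rule genes, the exclusion genes, detected genes, mitochondrial and total UMIs, gates, normalization, filters, DESeq2 1.42.0, the replicate block and each library left out. Removing members with epithelial UMIs, and BACH2 from the helper list, were added after the data were seen. Replicate numbers were checked as pairs by 10 correlations of their deviations, which ran from -0.215 to 0.239 with 1 over 0.1, so they were not used as pairs.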

Additional observations from a re-analysis of the deposited data

Results flagged for a closer look

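In 52 sets of 4 to 10 glands that were checked for 1 gland far from the others, 3 stood out. Chance gives about 1 in 20, so 3 of 52 is about as many as chance gives. The interferon-stimulated list summed to 13310 CPM in the members of G90 replicate 2, against 985 to 2814 CPM in the other 5 glands outside lactation. The epithelial list stood at 3894 CPM in the members of the same gland, against 620 to 1156 CPM. The macrophage and dendritic list stood at 481 CPM in the members of L20 replicate 2, against 145 to 201 CPM in the other 3 lactation glands. That gland also held 1385 macrophage nuclei, the most of any gland.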

How the results depend on the processing

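With 2 glands per stage, adjacent stages allow no permutation p below 1 in 3 and the gene tests recover only large changes. No share or ratio passed the threshold except the lactation ratio to B and plasma nuclei with at least 500 genes (-2.22). The lactation difference in cytotoxic-gated share reversed to 0.489 with gates of at least 2 genes, where L20 replicate 1 had 3 gated nuclei. Other directions of the 8 gland values held under the alternatives run.

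Genes called from G90 to L0 numbered 0 with at least 3 rule genes, without the exclusion genes, with no epithelial UMIs, with RLE, with no scaling, among genes higher in members, with at least 50 members and with the replicate block. They numbered 2 without members of high UMIs, 61 without the low-count filter, 28 from those 2 stages alone, 20 in DESeq2 and 651 at an unadjusted p with the fold limit kept (as for the unadjusted counts that follow). From L0 to L20 they numbered 1 with at least 3 rule genes, 1 without exclusion genes, 1 with no epithelial UMIs, 3 with at least 50 members, 3 from 2 stages alone, 100 without the filter, 33 in DESeq2 and 967 unadjusted. From L20 to PI2 they numbered 1 (3 rule genes), 9 (no epithelial UMIs), 15 (no filter), 1 (DESeq2) and 909 (unadjusted). From PI2 to PI7 they numbered 2 (no epithelial UMIs), 20 (no filter), 2 (DESeq2) and 371 (unadjusted), and for lactation 53 (no filter), 16 (DESeq2) and 443 (unadjusted). The replicate block gave 0 genes in every stage comparison.

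Between gates, genes higher in cytotoxic-gated and in helper-gated nuclei numbered 14 and 7 (3 rule genes), 136 and 90 (no exclusion genes), 14 and 3 (no high UMIs), 16 and 3 (no epithelial UMIs), 15 and 6 (no BACH2), 22 and 2 (genes higher in members), 14 and 6 (no gland block), 79 and 145 (DESeq2), and 162 and 215 (no fold limit). They numbered 26 and 21 with gates of 2 genes, and 108 and 45 with no filter.

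With no epithelial UMIs FOXP2 reversed to -6.19 (L0 against G90) and -2.60 (lactation), and PIK3C2G to 7.08 (L20 against L0). In that setting L0 replicate 1 (13 members) and L20 replicate 1 (18 members) were not in the fit. Only replicate 2 was then left at L0 (28 members) and at L20 (279 members). Without exclusion genes the log2 fold change of CCL4 was 3.9e-05 (L0 against G90). Without BACH2 the log2 fold change between gates was 0.056 for PDZRN3 and 0.0046 for SESTD1. Without L20 replicate 2 that of DYNC1I1 was -3.92 (L20 against L0, up to 9.98 with other libraries left out). The cause of these reversals was not tested.

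Leaving out 1 library at a time gave 0 to 9 genes from G90 to L0, 0 to 26 from L0 to L20, 0 to 1 from L20 to PI2, 0 to 4 from PI2 to PI7, 0 to 27 for lactation, and 31 to 60 and 40 to 89 between gates. The share ran from -3.90 to -2.59 points (lactation) and 2.05 to 4.04 (involution), and the cytotoxic-gated share from -7.55 to -4.00 and 5.83 to 9.30. The log2 ratio to macrophage nuclei ran from -2.60 to -0.92 and 0.64 to 1.67, and to B and plasma nuclei from -2.43 to -1.56 and 0.93 to 1.73.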
